A study of Mus musculus with 6 samples.

Results

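Nearly all mitochondrial proteins are made in the cytosol and pass into the organelle through protein import machines. The genes described here are the subunits of these machines: protein-coding genes of GRCm39 (GENCODE annotation) named Timm or Tomm with a number, together with Samm50, Mtx1, Mtx2, Mtx3, Chchd4, Dnajc19, Pam16, Grpel1 and Grpel2. Of 34 genes with such names, 32 had at least 10 estimated counts over the 6 libraries, among 18506 genes that did. Timm8a2 (1 count) and Tomm20l (2 counts) fell short and were not tested.

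The libraries came from bone marrow-derived macrophages (BMDMs) of 2 genotypes. Drp1 (gene Dnm1l) encodes the GTPase that cuts mitochondria during fission. WT BMDMs were from LysM-Cre+/- Drp1+/+ mice and Drp1 KO BMDMs from LysM-Cre+/- Drp1 fl/fl mice, so both groups carried the Cre, which the lysozyme M promoter drives in myeloid cells. BMDMs of both genotypes were used on day 7 of culture and received 8 hours of hypoxia serum starvation (HSS), an in vitro model of ischemia in which serum-free medium is combined with 2.1% oxygen. Poly(A) RNA was sequenced from 3 WT and 3 Drp1 KO libraries, numbered as biological replicates in the labels. The study's methods describe bone marrow of 2 mice per genotype as pooled, and whether each library had its own pool is not given, so the p-values measure the spread between these libraries, which may be technical.

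Depth was 23389488 to 32231206 estimated counts per library. Libraries are compared in CPM (counts relative to the TMM-normalized library size), and genes in TPM (scaled to transcript length as well as depth). Over the series, libraries 1 of both genotypes stood apart: the chi-square of counts per degree of freedom was 28.6 to 39.6 between library 1 and another library of its group, and 9.50 (WT) and 18.1 (Drp1 KO) between libraries 2 and 3. Dnm1l itself measured 72.7, 69.9 and 75.1 CPM in WT libraries 1 to 3 and 58.7, 60.7 and 66.3 CPM in Drp1 KO libraries, a log2 fold change of -0.23 (adjusted p = 0.248, edgeR). The groups did not overlap, but the difference missed the threshold, and counts summed over the whole gene do not show which exons remained. The 6 macrophage markers summed to 3752 to 4847 CPM in every library, and 3 of them passed the test, Fcgr1 higher (1.34) and Csf1r (-0.52) and Mertk (-0.52) lower in Drp1 KO libraries (log2 fold changes, edgeR). Neutrophil markers were few but higher on average in Drp1 KO libraries, where they summed to 14.1 to 37.7 CPM against 5.43 to 16.3 CPM in WT, with Ly6g and Elane under 10 counts in total. Fibroblast, lymphocyte and dendritic cell markers each summed to at most 4.09 CPM in every library. The part of neutrophil RNA in the results below was not tested.

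A precursor protein first meets the TOM complex of the outer membrane, where receptors (Tomm20, Tomm22, Tomm70a) bind it and the Tomm40 channel, with the small subunits Tomm5, Tomm6 and Tomm7, lets it through. From there β-barrel proteins go to the SAM complex (Samm50 and the metaxins), carrier proteins are escorted by the small TIM chaperones of the intermembrane space to TIM22, and proteins with a presequence go through TIM23 into the matrix, pulled by a motor built around the heat shock protein mtHsp70 (Hspa9). Tomm7 is also known for holding the kinase PINK1 at the outer membrane of damaged mitochondria, the step that starts one form of mitophagy.

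Tomm7 was the member whose mRNA passed the test over all genes, and its coding sequence is shown because a short protein of 55 codons is what this mRNA encodes. It is the coding part of Tomm7-201 on the minus strand of chromosome 5 (GRCm39; gene ENSMUSG00000028998, chr5:24043831-24049245), with the start and stop codons in capitals.
Tomm7-201: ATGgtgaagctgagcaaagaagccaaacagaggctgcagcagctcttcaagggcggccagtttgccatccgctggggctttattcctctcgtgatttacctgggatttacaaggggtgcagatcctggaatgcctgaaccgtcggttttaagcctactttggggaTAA

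The small TIM chaperones share a sequence feature that the choice of genes did not use: 2 pairs of cysteine codons, each pair with 3 codons between them. Such a twin CX3C motif was found in at least 1 coding transcript of all 6 small TIM genes that were tested. For Timm10b the coding transcript with the most TPM, Timm10b-210, holds 1 CX3C motif alone, and the stretch shown is from Timm10b-201, which holds both. The stretch from the first to the last of the 4 cysteine codons is shown from the GRCm39 transcripts, with the cysteine codons in capitals, so that the spacing can be compared between Timm13, which passed the study's thresholds but not the test over all genes, and its relatives.
Timm13: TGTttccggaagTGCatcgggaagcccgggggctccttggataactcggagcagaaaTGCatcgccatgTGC
Timm8a1: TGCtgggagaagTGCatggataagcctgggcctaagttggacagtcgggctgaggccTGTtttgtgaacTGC
Timm8b: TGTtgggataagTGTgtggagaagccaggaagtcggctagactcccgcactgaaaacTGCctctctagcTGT
Timm9: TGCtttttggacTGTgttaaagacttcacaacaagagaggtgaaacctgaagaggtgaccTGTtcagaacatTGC
Timm10: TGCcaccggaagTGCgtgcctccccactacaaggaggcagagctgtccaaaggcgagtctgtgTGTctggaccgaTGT
Timm10b: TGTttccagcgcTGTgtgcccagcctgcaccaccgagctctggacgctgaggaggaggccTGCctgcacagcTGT
Between the pairs lie 14 codons in Timm13, Timm8a1 and Timm8b, 15 in Timm9 and Timm10b, and 16 in Timm10.

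The comparison asks which import mRNAs differ between the libraries labelled WT and Drp1 KO after HSS. Tomm7 alone among the 32 members had an adjusted p under 0.05 (edgeR's quasi-likelihood test, Benjamini-Hochberg over all genes), and it was lower in Drp1 KO BMDMs; over all genes tested, 1.06% passed in that direction, 2.29% in the other and 3.36% in either. The study's own thresholds were a difference of more than 1.25-fold and a p below 0.05 without adjustment. They were met by 4 members, Tomm7, Dnajc19 and Timm13 lower and Timm23 higher, and by 12.7% of all genes, 5.48% lower and 7.19% higher. A share of 4 in 32 is near that background. Of the 32 members, 17 had log2 fold changes above 0 (50.6% of all genes did) and 15 below, and the median log2 fold change was 0.03, beside 0.00 for all genes. Within a fold of 1.25 in either direction lay 27 members (84.4%), beside 62.8% of all genes. The groups did not overlap in CPM for 7 members, 5 with Drp1 KO below and 2 above, while 21.9% of all genes did not overlap.

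**Figure D1:**
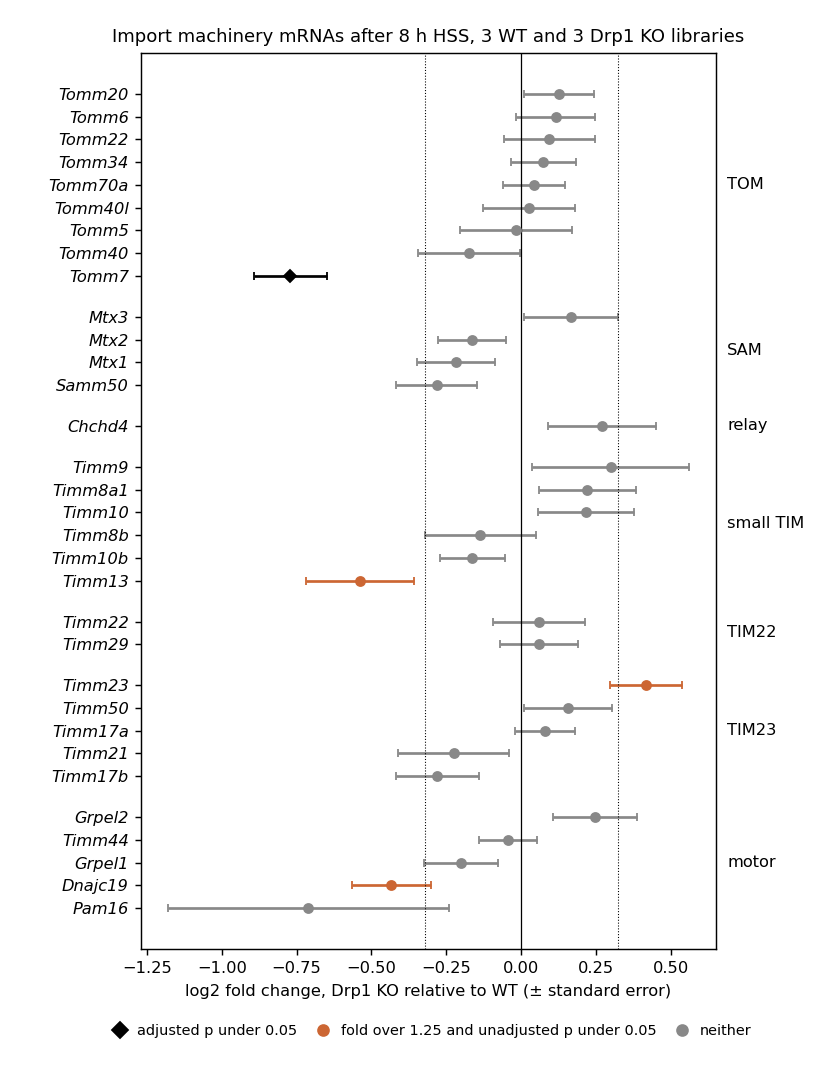
Log2 fold change (x axis, Drp1 KO relative to WT, bars are the standard error from edgeR) of the 32 import genes, grouped by the machine they belong to; dotted lines mark a fold of 1.25. Tomm7 at -0.77 is the diamond, Timm23, Timm13 and Dnajc19 are the coloured points, and the other 28 members are grey.

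Deviations of same-numbered libraries correlated between the genotypes, most for library 1, so a fit with the replicate number as a block was also made. There, 4 members had an adjusted p under 0.05 (Tomm7, Dnajc19, Timm13 and Timm23), beside 12.0% of all genes.

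At the TOM complex, Tomm7 measured 34.0, 42.1 and 42.7 CPM in WT libraries 1 to 3 and 25.3, 22.7 and 21.6 CPM in Drp1 KO libraries. Every Drp1 KO library lay below every WT library, and WT library 1 was the lowest of its group while Drp1 KO library 1 was the highest of its own. The mean was 39.6 ± 4.85 CPM in WT and 23.2 ± 1.88 in Drp1 KO (CPM, SD over 3 libraries). On the log2 scale the fold change was -0.77 ± 0.12 (SE), with an adjusted p of 0.00772 (edgeR). The level fell by 41.4% in Drp1 KO BMDMs. In bulk RNA, fewer cells that express the gene and less RNA per cell cannot be told apart. With 1 library left out at a time the log2 fold change stayed between -0.87 and -0.72, and the adjusted p rose to 0.0538 without WT library 2 and to 0.0512 without Drp1 KO library 2. All Tomm7 reads were assigned to 1 transcript, Tomm7-201, at 59.0, 75.4 and 81.6 TPM in WT and 39.9, 38.1 and 37.1 TPM in Drp1 KO libraries.

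None of the other 8 TOM genes passed either threshold (edgeR). Tomm20, the presequence receptor and the member with the highest TPM of all 32, measured 267, 246 and 219 CPM in WT and 234, 297 and 268 CPM in Drp1 KO libraries. The groups overlapped, and the log2 fold change was 0.13 ± 0.12 (SE) with an adjusted p of 0.677 (edgeR). The remaining receptors, the channel gene Tomm40, its relative Tomm40l, the small subunits Tomm5 and Tomm6 and the cytosolic Tomm34 had log2 fold changes from -0.17 (Tomm40) to 0.12 (Tomm6). Their adjusted p-values were 0.701 or higher and each overlapped between the groups. Among the 3 small subunits Tomm7 fell, and Tomm5 (-0.02, adjusted p = 0.987) and Tomm6 (0.12, adjusted p = 0.760, edgeR) did not pass; the difference between the subunits was not tested. The Tomm6 value has a limit: 87.1% of the 31-base words of Tomm6-202 also occur in Gm21981, an overlapping gene on the same strand, which measured 2.31 ± 0.218 CPM in WT against 1.08 ± 0.393 CPM in Drp1 KO libraries (SD, n = 3 each).

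**Figure D2:**
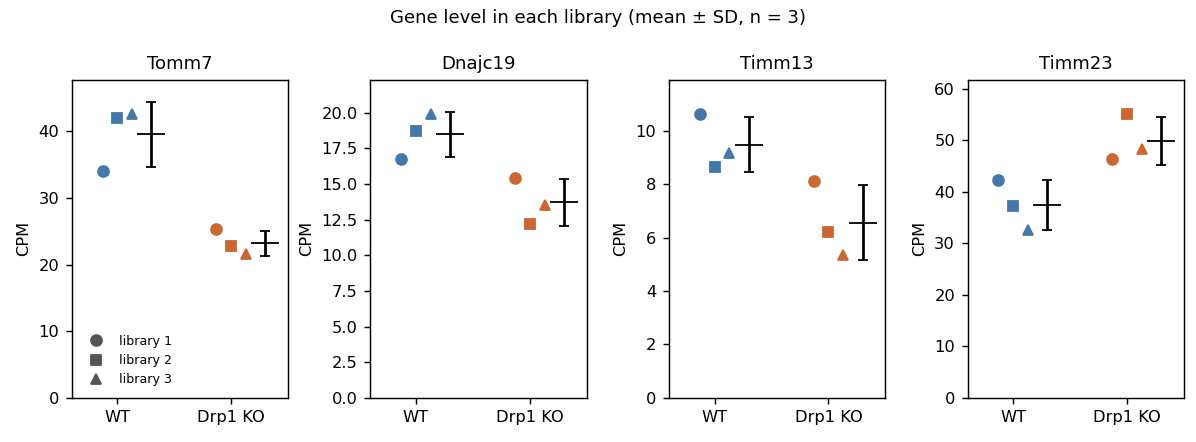
CPM (y axis, from 0) of Tomm7, Dnajc19, Timm13 and Timm23 in each WT (blue) and Drp1 KO (orange) library, with the mean and SD beside the points. The genotypes do not overlap in any of the 4 panels; Tomm7 means are 39.6 and 23.2 CPM, and Timm23 means are 37.4 and 49.9 CPM.

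The TIM23 channel gene Timm23 (ENSMUSG00000013701) lay the other way. It measured 42.4, 37.3 and 32.6 CPM in WT and 46.3, 55.2 and 48.2 CPM in Drp1 KO libraries. Drp1 KO libraries were all above WT libraries, although Drp1 KO library 1 was only 46.3 CPM against 42.4 CPM in WT library 1. The log2 fold change was 0.42 ± 0.12 (SE) with an unadjusted p of 0.00626 and an adjusted p of 0.104, which became 0.0194 with the replicate block (edgeR).

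In TPM, the larger part of this difference lay on a transcript that is not annotated as coding. Timm23-201, the full coding transcript with 7 exons, was at 56.4, 50.4 and 46.3 TPM in WT and 54.4, 59.1 and 55.6 TPM in Drp1 KO libraries, and the groups overlapped (log2 fold change 0.24, unadjusted p = 0.121, edgeR). Timm23-203, with 4 exons and no defined coding sequence, was at 2.12, 3.06 and 4.70 TPM in WT and 6.46, 23.8 and 17.6 TPM in Drp1 KO libraries. Its log2 fold change was 2.37 ± 0.50 (SE), with an unadjusted p of 0.00199 and an adjusted p of 0.136 over the 62316 transcripts tested (edgeR), so it did not pass. The share of Timm23 TPM on Timm23-203 ran from 3.43% to 9.11% in WT and reached 10.4%, 28.4% and 23.8% in Drp1 KO libraries. With counts summed over coding transcripts alone, an alternative chosen after the transcript values were seen, the log2 fold change of Timm23 was 0.25 (adjusted p = 0.297, edgeR) and 0.26 with the block (adjusted p = 0.122, edgeR), so the call under the block was lost.

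The transcripts differ where Timm23-203 begins with an exon of 252 bases (chr14:31913663-31913914, GRCm39, minus strand) that lies in an intron of Timm23-201 and then joins the fifth exon of Timm23-201 (chr14:31913299-31913357). The 30 bases before and the 30 bases after that junction are shown because reads across it, or within the 252 bases, match Timm23-203 and not Timm23-201, while the first 4 exons of Timm23-201 are absent from Timm23-203. The shared exon is in capitals.
Timm23-201: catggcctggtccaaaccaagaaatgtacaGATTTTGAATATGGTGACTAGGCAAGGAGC
Timm23-203: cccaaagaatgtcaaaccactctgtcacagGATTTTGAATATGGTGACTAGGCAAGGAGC
The other 3 exons of Timm23-203 lie within exons of Timm23-201, and the files hold no repeated estimates of this split, so the error of splitting reads between them is not in the test. Of the 31-base words of Timm23-201, 52.5% also occur in Gm10273 and 52.3% in each of Gm10233 and Gm10171, processed copies of the gene on which 0 counts were placed. The end of Timm23 overlaps the end of Ncoa4 on the opposite strand, and whether strand was used in the quantification is not stated. Ncoa4 measured 489 ± 53.0 CPM in WT against 438 ± 61.7 CPM in Drp1 KO libraries (SD, n = 3 each). Its groups overlapped (log2 fold change -0.16 ± 0.12 SE, adjusted p = 0.617, edgeR). The part of Ncoa4 reads in the Timm23 values was not tested.

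The other TIM23 genes did not pass either threshold. Timm17b, one of a pair of genes for the Tim17 subunit, measured 9.14, 9.90 and 10.6 CPM in WT and 8.53, 8.52 and 7.36 CPM in Drp1 KO libraries. All Drp1 KO values were below all WT values, with a log2 fold change of -0.28 ± 0.14 (SE) and an adjusted p of 0.357 (edgeR). Its paralog Timm17a had a log2 fold change of 0.08 ± 0.10 (SE) and also did not overlap, with Drp1 KO above. Timm21, which links TIM23 to the TOM complex and the respiratory chain, measured 7.50, 8.66 and 9.30 CPM in WT and 5.40, 8.43 and 7.85 CPM in Drp1 KO libraries. These groups overlapped, and the log2 fold change was -0.23 ± 0.19 (SE) with an adjusted p of 0.636 (edgeR). On coding transcripts, which held 13.3% of its TPM, the log2 fold change was -0.67 ± 0.26 (SE; unadjusted p = 0.0291, adjusted p = 0.206, edgeR) and the TPM did not overlap. The presequence receptor Timm50 stood at 0.16 ± 0.15 (SE).

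The log2 ratio of Timm17a to Timm17b (TPM, pseudocount 0.1) was 2.44, 2.34 and 2.35 in WT and 3.09, 3.38 and 3.17 in Drp1 KO libraries, a difference of 0.83. In CPM the difference was 0.35, and on coding transcripts alone, an alternative added after the values were seen, 0.77 in TPM. The ratios did not overlap; the exact two-sided permutation p was 0.1, the smallest that 3 against 3 libraries can give, and 0.35 after adjustment over the 7 pairs compared. Mtx1 to Mtx3 differed by -0.48 with the same p-values (in CPM by -0.37, exact permutation p = 0.3), and the other 5 pairs (Grpel1 and Grpel2, Tomm40 and Tomm40l, Timm8a1 and Timm8b, Timm10 and Timm10b, Timm22 and Timm23) had exact p-values from 0.3 to 1. Of the TPM of Timm17a, 71.6% lay on Timm17a-204, a short transcript annotated as a retained intron. Of the TPM of Timm17b, 15.9% lay on Timm17b-202, a coding transcript of 438 bases with 23 counts over all libraries. It was at 1.06 ± 0.251 TPM in WT and 0.228 ± 0.275 TPM in Drp1 KO libraries (SD, n = 3 each), and the ratio on coding transcripts still includes it.

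In the motor that pulls precursors into the matrix, Dnajc19 (ENSMUSG00000027679, chr3:34078239-34135482, GRCm39, minus strand) was the member past the study's thresholds. Its product, a J-domain protein known as TIM14 or PAM18, stimulates mtHsp70 at the channel. It measured 16.8, 18.7 and 19.9 CPM in WT and 15.4, 12.2 and 13.5 CPM in Drp1 KO libraries. The groups did not overlap, though WT library 1 and Drp1 KO library 1 were only 16.8 and 15.4 CPM. The log2 fold change was -0.43 ± 0.13 (SE), with an unadjusted p of 0.00781 and an adjusted p of 0.117, and 0.0325 with the replicate block (edgeR); DESeq2 gave an adjusted p of 0.0488. Counted on coding transcripts alone, the log2 fold change was -0.48 (adjusted p = 0.0540, and 0.0274 with the block, edgeR).

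By transcript, Dnajc19-202, the short coding form of 659 bases, was at 25.7, 23.5 and 18.4 TPM in WT and 14.4, 10.7 and 7.61 TPM in Drp1 KO libraries. All Drp1 KO libraries were lower than all WT libraries (log2 fold change -0.87 ± 0.33 SE, unadjusted p = 0.0336, adjusted p = 0.424, edgeR). A longer coding form, Dnajc19-201, held more counts (1470 over all libraries, against 805 for Dnajc19-202). It was at 5.44, 7.33 and 9.06 TPM in WT and 5.09, 4.88 and 6.61 TPM in Drp1 KO libraries. Those values overlapped (log2 fold change -0.28 ± 0.21 SE, unadjusted p = 0.226, adjusted p = 0.769, edgeR). Dnajc19-205, annotated as a retained intron, was at 6.54, 6.92 and 15.8 TPM in WT and 14.0, 3.81 and 8.70 TPM in Drp1 KO libraries, with no separation. Of the 31-base words of Dnajc19-202, 37.7% also occur in the processed pseudogenes Dnajc19-ps and Gm20164, on which 0 counts were placed.

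The other motor genes did not pass. Timm44, the scaffold that ties mtHsp70 to the channel and the motor gene with the highest TPM, measured 42.7, 41.2 and 38.9 CPM in WT and 39.6, 42.0 and 37.6 CPM in Drp1 KO libraries. The groups overlapped almost fully (log2 fold change -0.04 ± 0.10 SE, adjusted p = 0.899, edgeR). Grpel1, the main nucleotide exchange factor of mtHsp70, measured 29.5, 30.3 and 29.7 CPM in WT and 30.5, 24.9 and 22.7 CPM in Drp1 KO libraries. Libraries 2 and 3 were lower in Drp1 KO BMDMs and library 1 was not, and the log2 fold change was -0.20 ± 0.12 (SE; adjusted p = 0.477, edgeR). Grpel2, its stress-related paralog, measured 11.5, 10.3 and 12.5 CPM in WT and 12.0, 15.3 and 13.4 CPM in Drp1 KO libraries, a log2 fold change of 0.25 ± 0.14 (SE; adjusted p = 0.435, edgeR). Pam16, the partner that restrains Dnajc19, had the fewest counts of the 32 members, at 2.46, 1.87 and 0.716 CPM in WT and 1.59, 0.794 and 0.736 CPM in Drp1 KO libraries. Its log2 fold change of -0.71 carried an SE of 0.47 (adjusted p = 0.523, edgeR). Pam16 cannot be read alone, since 89.0% of the 31-base words of Pam16-201 also occur in Pam16l, a gene on chromosome 10 that measured 3.68 ± 0.539 CPM in WT against 4.69 ± 0.578 CPM in Drp1 KO libraries (SD, n = 3 each).

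Among the small TIM chaperones, Timm13 (ENSMUSG00000020219, chr10:80734530-80736803, GRCm39, minus strand), which works with Timm8a1, was the member past the study's thresholds. It measured 10.7, 8.66 and 9.17 CPM in WT and 8.13, 6.20 and 5.37 CPM in Drp1 KO libraries. The groups did not overlap, and in both groups library 1 was the highest. The log2 fold change was -0.54 ± 0.18 (SE), with an unadjusted p of 0.0133 and an adjusted p of 0.155, and 0.0185 with the replicate block (edgeR). This value depended on how transcript length entered. In TPM, Timm13 was at 13.0, 11.2 and 13.4 in WT and 14.9, 9.84 and 9.37 in Drp1 KO libraries, which overlapped, and with length-scaled counts the log2 fold change was -0.05 (adjusted p = 0.961, edgeR).

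Timm13-201, of 1225 bases, was at 11.0, 8.71 and 9.60 TPM in WT and 5.04, 4.89 and 4.04 TPM in Drp1 KO libraries (log2 fold change -0.97 ± 0.22 SE, unadjusted p = 0.00293, adjusted p = 0.160, edgeR). Timm13-204, of 542 bases in the files, went from 0.808 TPM or less in WT libraries to 5.08, 3.50 and 4.24 TPM in Drp1 KO libraries (unadjusted p = 0.00639, adjusted p = 0.224, edgeR), with a count of 0 in WT library 1. Neither passed the test over all transcripts. In the annotation Timm13-204 has 0 bases outside the exons of Timm13-201, which is longer in its first and last exons, and the first exons end at different bases (80736503 and 80736458).

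**Figure D3:**
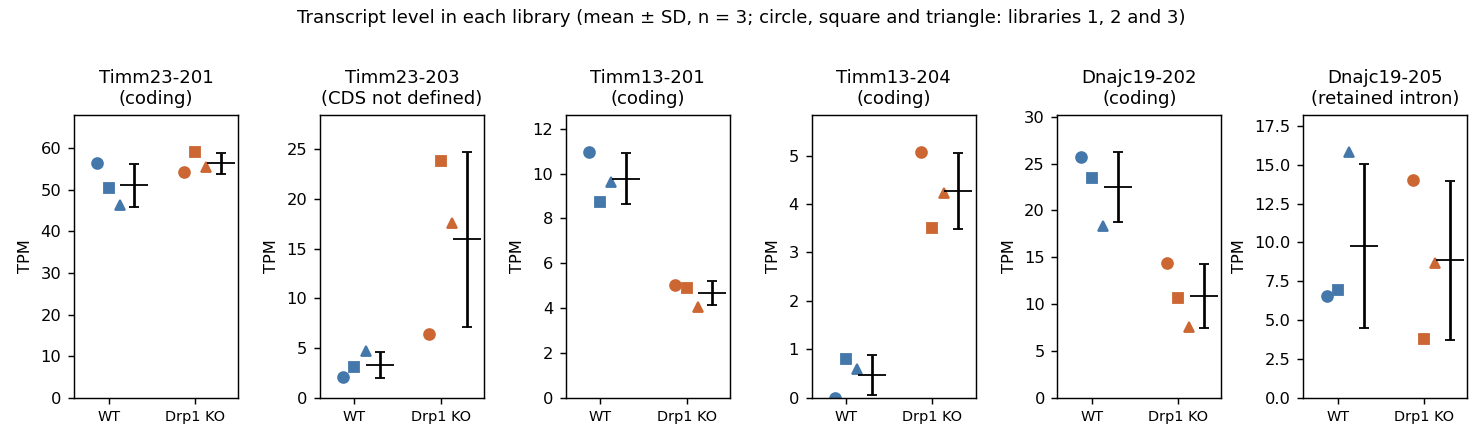
TPM (y axis, from 0 in each panel) of 6 transcripts in each WT (blue) and Drp1 KO (orange) library, with the mean and SD. Timm23-203, Timm13-201, Timm13-204 and Dnajc19-202 do not overlap between genotypes, while Timm23-201 and Dnajc19-205 do; Timm23-203 ranges from 6.46 to 23.8 TPM within the Drp1 KO group.

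The other small TIM genes did not pass, and they did not share a direction. Timm9 and Timm10 form the main chaperone that escorts carrier proteins. Timm9 measured 1.85, 1.84 and 2.86 CPM in WT and 2.32, 3.30 and 2.45 CPM in Drp1 KO libraries (log2 fold change 0.30 ± 0.26 SE, adjusted p = 0.662, edgeR). Timm10 measured 12.5, 11.9 and 10.7 CPM in WT and 11.3, 16.7 and 12.7 CPM in Drp1 KO libraries (0.22 ± 0.16 SE, adjusted p = 0.582, edgeR). Both overlapped between the groups. Timm8a1, the partner of Timm13 and the mouse counterpart of the gene mutated in human deafness-dystonia syndrome, measured 14.5, 10.3 and 10.1 CPM in WT and 12.6, 14.7 and 13.3 CPM in Drp1 KO libraries. Its log2 fold change was 0.22 ± 0.16 (SE; adjusted p = 0.576, edgeR), with WT library 1 at the level of the Drp1 KO libraries. Timm10b, which sits at TIM22, measured 23.8, 25.0 and 26.9 CPM in WT and 20.7, 22.8 and 24.0 CPM in Drp1 KO libraries (-0.16 ± 0.11 SE, adjusted p = 0.529, edgeR). Much of Timm10b was assigned to a retained intron transcript, Timm10b-205, at 64.1, 45.4 and 52.6 TPM in WT and 36.6, 37.1 and 33.9 TPM in Drp1 KO libraries, and on coding transcripts alone the log2 fold change of the gene was 0.01. Timm8b had a log2 fold change of -0.14.

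Chchd4, the oxidoreductase that puts disulfide bonds into small TIM proteins and other cysteine motif proteins, measured 11.9, 8.32 and 8.52 CPM in WT and 12.8, 12.3 and 9.57 CPM in Drp1 KO libraries. The groups overlapped through WT library 1 (log2 fold change 0.27 ± 0.18 SE, adjusted p = 0.524, edgeR). For TIM22, which inserts carrier proteins, Timm29 measured 24.1, 22.4 and 18.8 CPM in WT and 19.9, 24.2 and 23.8 CPM in Drp1 KO libraries. The log2 fold changes of Timm29 and the channel gene Timm22 were both 0.06, with SEs of 0.13 and 0.15.

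At the SAM complex, 3 of 4 genes had lower means in Drp1 KO BMDMs and 0 passed either threshold. Samm50, the β-barrel that forms the insertion site, measured 25.5, 21.5 and 24.3 CPM in WT and 23.0, 18.7 and 17.1 CPM in Drp1 KO libraries. The log2 fold change was -0.28 ± 0.13 (SE; unadjusted p = 0.0625, adjusted p = 0.337, edgeR), with Drp1 KO library 1 inside the WT range. Mtx1 measured 20.8, 16.9 and 19.2 CPM in WT and 16.7, 17.8 and 14.5 CPM in Drp1 KO libraries (-0.22 ± 0.13 SE, adjusted p = 0.463, edgeR). Mtx2 measured 14.6, 14.9 and 13.9 CPM in WT and 13.2, 13.3 and 12.2 CPM in Drp1 KO libraries, which did not overlap (-0.16 ± 0.12 SE, adjusted p = 0.553, edgeR). Mtx3 stood at 0.17. The metaxins assist SAM at the outer membrane. Only 20.1% of the TPM of Mtx1 and 38.4% of that of Samm50 lay on coding transcripts.

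Per length, the machines differ widely in mRNA level. On coding transcripts, Tomm20 had the highest mean over the 6 libraries (87.7 TPM), followed by Tomm6 (72.1), Timm8b (62.3), Tomm7 (55.2) and Timm23 (53.9). The lowest were Timm21 (2.11), Mtx3 (2.23) and Pam16 (2.61). This order rests on the transcript lengths in the files, which differ from the annotation for many members. Timm8b-201, for one, has 518 bases in the files and 3178 in the annotation. Tomm40, the pore itself, was at 13.7 ± 2.27 TPM in WT BMDMs (SD, n = 3), while its small partner Tomm7 was at 72.0 ± 11.7 TPM. In Drp1 KO BMDMs Tomm7 was at 38.4 ± 1.45 TPM (SD, n = 3), so its place in the order differs between the genotypes.

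Summed over coding transcripts, the 5 motor genes came to 86.0, 82.7 and 78.8 TPM in WT and 66.5, 63.2 and 56.3 TPM in Drp1 KO libraries. These sums did not overlap, and Dnajc19 made up the larger part of the difference, with 30.9 ± 1.60 TPM in WT and 17.5 ± 2.45 TPM in Drp1 KO libraries (SD, n = 3 each). The 4 SAM genes came to 26.4, 26.4 and 26.0 TPM in WT and 21.7, 20.9 and 19.0 TPM in Drp1 KO libraries, and the 9 TOM genes to 361, 365 and 380 TPM in WT and 325, 350 and 312 TPM. For TOM, Tomm7 made up the larger part of the difference, with 72.0 ± 11.7 TPM in WT and 38.4 ± 1.45 TPM in Drp1 KO libraries (SD, n = 3 each). TIM23, TIM22, Chchd4 and the small TIM genes overlapped between genotypes on this scale. By member, the groups did not overlap on this scale for 9 (Tomm7, Dnajc19, Grpel1, Timm44, Samm50, Mtx1, Mtx2, Timm17b and Timm21), all with Drp1 KO below, beside 23.7% of all genes that did not overlap, 16.2% with Drp1 KO below and 7.50% above. The median gene was lower by 0.08 (log2) on this scale and was at 0.01 in CPM. No test was made of these sums.

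**Figure D4:**
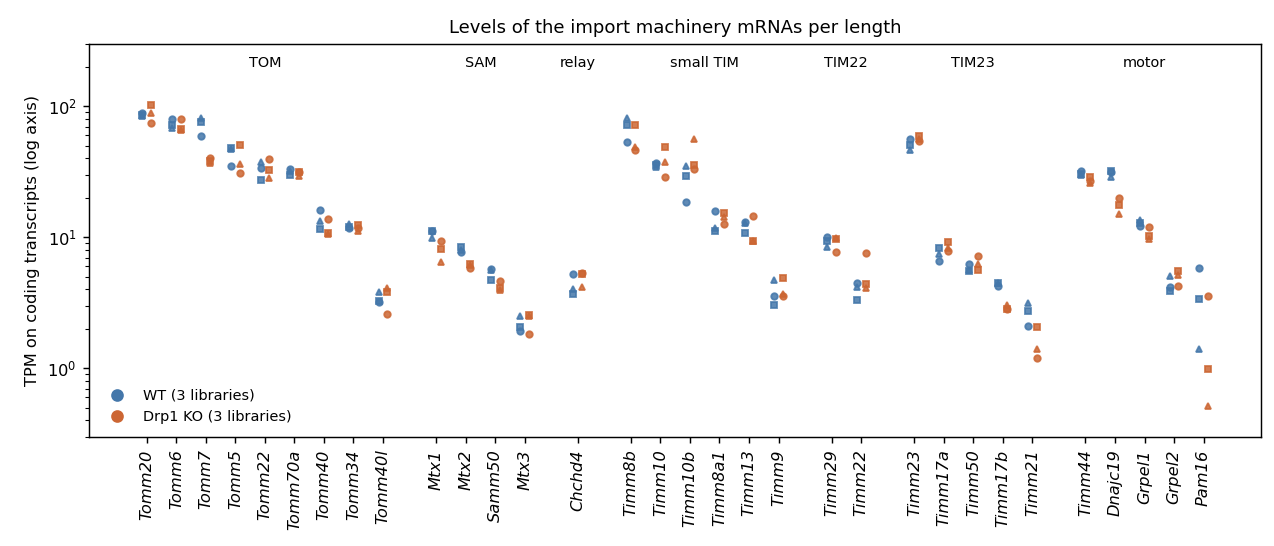
TPM on coding transcripts (log axis) of the 32 import genes in 3 WT (blue) and 3 Drp1 KO (orange) libraries, with circles, squares and triangles for libraries 1, 2 and 3. Levels run from about 2 TPM for Timm21 to 87.7 TPM for Tomm20; the genotypes do not overlap for 9 members, Tomm7 and Dnajc19 among them, all with Drp1 KO below.

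Of 154 transcripts of the 32 genes in the files, 122 were tested. With an adjusted p under 0.05 there were 0, beside 0.334% of all transcripts tested, and 9 had an unadjusted p under 0.05, beside 10.3% (edgeR). The smallest adjusted p was 0.0866, for Tomm7-201. For 18 members over 90% of TPM lay on coding transcripts, and for 5 members over 50% lay outside them.

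Among the import genes, library 1 was the highest of its group in both genotypes for 10 members and the lowest for 4, beside 23.2% and 24.1% of all genes. The median member differed from its WT mean by -0.08 to 0.07 (log2 CPM) in the 6 libraries. Without WT library 1, 2 members had an adjusted p under 0.05, Tomm7 (-0.87, adjusted p = 0.00326) and Timm23 (0.51, adjusted p = 0.0464). Without Drp1 KO library 1 they were Tomm7 (-0.84, adjusted p = 0.00639) and Timm13 (-0.72, adjusted p = 0.0412). Without WT library 2 or Drp1 KO library 2 the number was 0 (edgeR), with 181 and 268 genes called over the whole series.

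The genes around the import machines, taken from a list of 28 (mtHsp70, processing peptidases, insertases, chaperonins and the MICOS genes that shape cristae), had 0 with an adjusted p under 0.05 (edgeR), where 8 had an unadjusted p under 0.05, beside 16.4% of all genes, and DESeq2 called 1. Under the study's thresholds 3 passed, all higher in Drp1 KO BMDMs, where 7.19% of all genes passed in that direction. Apool, a MICOS subunit, measured 13.8, 16.1 and 16.2 CPM in WT and 19.6, 21.8 and 23.4 CPM in Drp1 KO libraries. No values overlapped, and the log2 fold change was 0.49 ± 0.12 (SE; adjusted p = 0.0635, and 0.00614 with the block, edgeR). Its relative Apoo measured 6.94, 7.95 and 9.37 CPM in WT and 10.9, 9.32 and 10.8 CPM in Drp1 KO libraries, with the groups overlapping slightly (0.35 ± 0.15 SE, adjusted p = 0.294, edgeR). Dnajc15, a J-domain protein related to Dnajc19, measured 56.2, 63.1 and 54.9 CPM in WT and 64.2, 82.3 and 84.1 CPM in Drp1 KO libraries. It was higher in every Drp1 KO library, by 0.40 ± 0.12 (SE) on the log2 scale (adjusted p = 0.112, and 0.0163 with the block, edgeR), while Dnajc19 was lower in every one. On coding transcripts, which held 9.78% of the TPM of Dnajc15, its log2 fold change was 0.36 (adjusted p = 0.227, and 0.0957 with the block, edgeR), so the blocked call was lost.

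Hspa9, the mtHsp70 that these J-domain proteins drive, measured 727, 614 and 562 CPM in WT and 922, 834 and 632 CPM in Drp1 KO libraries. Each Drp1 KO library was above the WT library of the same number, yet the groups overlapped in CPM (0.33 ± 0.15 SE, adjusted p = 0.312, and 0.0212 with the block, edgeR). With a library left out the log2 fold change ran from 0.20 to 0.47. In TPM, Hspa9 was at 386, 342 and 330 in WT and 588, 588 and 459 in Drp1 KO libraries, which did not overlap. On coding transcripts alone the TPM overlapped, at 334 ± 29.8 in WT and 384 ± 57.9 in Drp1 KO libraries (SD, n = 3 each). With the block, 7 of the 28 passed, beside 12.0% of all genes: Hspa9, Dnajc15, Mtch2, Atad1 and Apool higher, and Aifm1 and Immt lower. On coding transcripts alone with the block 2 passed, beside 10.5% of all genes: Apool (0.53, adjusted p = 0.0137) higher and Micos10 (-0.62, adjusted p = 0.0146, edgeR), a MICOS subunit with 6.22% of its TPM on coding transcripts, lower. The other 6 calls made with the block, did not pass there, with log2 fold changes in the same direction and of similar or larger size: Hspa9 0.27, Dnajc15 0.35, Mtch2 0.36, Atad1 0.29, Aifm1 -0.47 and Immt -0.27. Their adjusted p-values ran from 0.0528 (Hspa9) to 0.0957 (Dnajc15, edgeR). The matrix processing peptidase genes Pmpca and Pmpcb had log2 fold changes of 0.06 and 0.24, the sulfhydryl oxidase gene Gfer, which reoxidizes the Chchd4 protein, 0.11, the insertase gene Oxa1l -0.19 and the complex I assembly gene Timmdc1 -0.17. Their adjusted p-values ran from 0.339 to 0.853 (edgeR).

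Promoter sequences from RefSeq (GRCm38.p6, 250 bases before to 50 after the start) were found for 28 of the 32 members (all but Tomm7, Timm21, Grpel2 and Tomm40l) and searched on both strands. The letters CCGGAAG, a site of the GABP type of ETS factor, occurred in the promoters of 12 members, or 42.9%, beside 9.93% of the 27025 genes in the table. Timm23 and Grpel1 were among the 12, and Timm13 and Dnajc19 were not. In Timm23 the letters lay 47 bases before and 10 bases after the start. CGCATGCG, the core of the NRF1 motif, occurred in 1 member, Timm13, beside 2.07% of genes, and TGATGCAA, an ATF4 type site, in 0 members, beside 1.03%. The genes in the promoter table were not filtered by counts, while the members were, so these shares do not come from like sets. A share among genes that passed the count filter was not computed. These matches describe the sequence and not binding, and no other measurement here bears on them.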

How the data were processed

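RNA was measured in 3 WT and 3 Drp1 KO BMDM libraries, grouped by the genotype in the labels. The authors quantified paired-end reads with kallisto 0.46.1 against Ensembl cDNA of GRCm39 and deposited estimated counts and TPM for every transcript in each library, with no scaling between libraries. The submitters' processing notes also list DESeq2 1.44.0. The paper and the labels differ on oxygen (2% and 2.1%), L929 medium (20% and 10%) and the RNA kit.

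Of 116873 transcripts, 99.4% matched a GRCm39 gene of GENCODE M39, and 0.542% to 0.575% of a library's counts lay on the others and were dropped. The estimated counts of a gene's transcripts were summed, rounded to whole numbers, filtered at 10 counts in total and tested with edgeR 4.0.16 in R 4.3.3 (TMM, quasi-likelihood test of genotype, Benjamini-Hochberg over 18506 genes), and per transcript likewise. The SE of a log2 fold change is its size over the square root of the F statistic. The test was checked on simulated counts with 200 genes changed, at median measured log2 fold changes of 1.03 and -0.993. Of these, 73% were recovered, with 11 false calls. Changes of the smaller sizes seen in the members were not simulated, so the check does not show how often those would be found. A floor of 3 counts equals 0.0936 to 0.129 CPM and covers counting error only. DESeq2 1.42.0, limma 3.58.1 (voom), other normalizations, filters, length-scaled counts, leaving out each library and coding transcripts alone were alternatives.

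Replicate numbers were checked for pairing: deviations from the group means correlated at 0.510, 0.204 and 0.298 between same-numbered WT and Drp1 KO libraries (12248 genes averaging 1 CPM or more); WT library 2 correlated more with Drp1 KO library 3 (0.326) than with library 2. The pairing comes from these data, not from a statement of the study. No library was a copy of another (chi-square per degree of freedom at least 9.50 within a group).

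The members, the partner list, the marker lists and the thresholds were chosen with earlier results of these data known. Library values are given for members past either threshold, the member of highest TPM per machine and those of smallest p, up to 20, and for partners past a threshold or fixed by name (Hspa9, Gfer, Pmpca, Pmpcb, Oxa1l, Timmdc1 as fold changes). Sharing of 31-base words was computed from GENCODE M39 models and is quoted only where the transcript had the same length as in the files, which held for 12 of 32 main transcripts. The noncoding genes Timm29-ps1 and Tomm6os were left out.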

Additional observations from a re-analysis of the deposited data

How the results depend on the processing

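The limits are the 3 libraries per group and transcripts that share sequence. The number of import genes with an adjusted p under 0.05, 1 with edgeR, was 2 with DESeq2, 4 with the replicate block, 3 with coding transcripts alone and the block, and 0 to 2 with a library left out (0 when WT library 2 or Drp1 KO library 2 was the one omitted). At the study's thresholds, 4 members passed, and 3 to 8 with a library left out (7 with WT library 1 omitted, 8 with Drp1 KO library 1 omitted). Over all genes, 621 were called, 1155 by DESeq2, 1065 with no filter beyond 1 count, 2212 with the block, 1590 with coding transcripts alone and the block, and 181 to 904 with a library left out (181 and 217 with WT libraries 2 and 3 omitted, 268 and 348 with Drp1 KO libraries 2 and 3 omitted). Of the 28 partners, 0 passed, but 1 with DESeq2, 1 with no filter, 2 with length-scaled counts, 2 with coding transcripts alone, 2 with these and the block, 7 with the block and 0 to 2 with a library left out (2 without Drp1 KO library 1); at the study's thresholds it was 3, but 6 with length-scaled counts, 5 with voom, 5 with coding transcripts alone, 7 with these and the block, 6 with the block and 2 to 8 with a library left out (8 when Drp1 KO library 1 was omitted, 5 for WT library 1 and 5 for Drp1 KO library 2).

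Among the genes given with library values, the directions that turned were of differences that passed no test: Timm29 (-0.050 without WT library 3, up to 0.14 with another left out), Timm44 (0.00013 without Drp1 KO library 3, down to -0.092 with another left out), Timm10b (0.0044 with length-scaled counts, 0.0089 on coding transcripts, 0.016 with these and the block), Mtx2 (0.18 with length-scaled counts) and Gfer (-0.12 without Drp1 KO library 1, up to 0.26 with another left out), and the log2 ratios of Tomm40 to Tomm40l (-0.20 in CPM; -0.23 on coding transcripts; -0.27 to 0.29 with a library left out), Timm10 to Timm10b (-0.53 on coding transcripts; -0.074 to 0.27) and Timm22 to Timm23 (0.23 on coding transcripts; -0.43 to 0.17). Other log2 fold changes that passed no test kept their direction but moved in size with a library left out. Among them were Pam16 (-1.13 to -0.34), Timm10 (0.047 to 0.32), Timm21 (-0.34 to -0.071), Timm8a1 (0.11 to 0.41), Grpel1 (-0.34 to -0.11) and Chchd4 (0.16 to 0.45). Of the 12 members given without library values and the other 19 partners, 7 and 7 also turned under some setting. The cause was not tested. With the replicate block, Tomm7 kept its call and Dnajc19, Timm13 and Timm23 gained one; it changed no other member's call. The median member fold change stayed between -0.03 and 0.06 over all settings. Every alternative planned or added was run, apart from the paralog pair of Tomm20 and Tomm20l, since Tomm20l had 2 counts. Counting error weighs most on Pam16 and Timm9, with 212 and 415 counts over all libraries.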
